A study of Mus musculus with 12 samples.

Results

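The epithelial alarmins and the receptors of the IL-1 family were represented by 10 mouse genes, chosen by name for their roles in allergic airway signalling. Earlier results of these data were known when they were chosen. Il33, Il18 and Tslp encode the ligands, Il1rl1, Il18r1, Il1r1, Crlf2 and Il17rb encode receptor chains that bind a ligand, and Il18rap and Il1rap encode accessory chains. A peak counted as a member peak when its assigned gene name, or the gene on which it had been called, was one of these genes. Across the lung lists 14988 genes had a called peak, and 8 of the 10 genes were among them.

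The study compared N6-methyladenosine (m6A) in lung RNA of mice with ovalbumin-induced allergic asthma and of control mice. Both groups were female BALB/c mice aged 6 to 8 weeks, with 3 mice in each. The OVA group was sensitised with ovalbumin and aluminium hydroxide on days 0 and 7 and inhaled 3% ovalbumin aerosol for 30 min a day from day 14 to day 20, while the PBS group was injected with PBS without ovalbumin or adjuvant and inhaled PBS. The authors describe collecting lungs and lavage fluid after an airway test with nebulised methacholine on day 21. Which of the mice were sequenced is not stated. Each sequenced mouse gave 1 library of RNA pulled down with an m6A antibody (IP) and 1 input library of the same fragmented RNA. There were 6 IP and 6 input libraries in all. A peak is a stretch of exonic RNA in which IP reads exceed input reads, and the fold enrichment gives how many times higher IP was than input there. Each group had 1 deposited list, so a value "in OVA lung" or "in PBS lung" is that of the list of the group. It has no replicate error and allows no test between groups. Positions are on GRCm38. The lists give no read numbers, so the depth behind a peak is unknown. In whole lung RNA, fewer cells of a type and less RNA per cell cannot be told apart.

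IL-33, TSLP and IL-25 are released by barrier epithelium and act on group 2 innate lymphoid cells, mast cells and Th2 cells. IL-33 binds ST2, the product of Il1rl1, and then recruits the accessory chain IL-1RAP, which also serves the IL-1 receptor, whereas IL-18 uses its own accessory chain. Methylation of adenosine at m6A sites in mRNA is known to lie mostly near stop codons and in 3' UTRs.

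The OVA list held 14 member peaks and the PBS list 13. All but 1 of the OVA peaks, which was called on Gm20319 and named for Il1rap, had been called on member genes, 7 of the 10 in OVA lung and 8 in PBS lung. The 7 genes carried a peak in both lists, and Il18 carried one in PBS lung only. Tslp and Crlf2, a ligand and its own receptor chain, had no peak in either list, which does not say that their RNA lacked m6A. The share of all genes with a peak in OVA lung and none in PBS lung was 11.7%, and the share the other way was 8.10%. Against these shares stood 0 of the 7 member genes of the OVA list and 1 of the 8 of the PBS list.

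Among the ligands, Il33 had a single peak in both lists. It lay in the 3' UTR at chr19:29958904-29959528 in OVA lung and at chr19:29958904-29959558 in PBS lung, so the 625 exonic bp of the OVA peak were all shared. The fold enrichment was 3.89 in OVA lung, at percentile 36.7 of that list, and 5.90 in PBS lung, at percentile 52.8. The PBS value was 1.52 times the OVA value. The log10 p was nonetheless lower in OVA lung, -508 against -84.3. A p value of a peak depends on the number of reads as well as on the ratio.

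Il18, whose product is cut to its active form by caspase-1, had 1 peak of 90 bp in PBS lung, at chr9:50581722-50581811 in the 3' UTR. Its fold enrichment was 3.04 and its FDR 0.0269. With a log10 p of -2.39 it stood at percentile 4.03 of the PBS list by strength of the p value, among the weaker peaks. No OVA peak overlapped it.

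The receptor genes Il1r1, Il1rl1, Il18r1 and Il18rap lie in a row on chromosome 1, with Il1rl2 between Il1r1 and Il1rl1, and carried 10 of 14 member peaks in OVA lung and 9 of 13 in PBS lung. Il1r1, the signalling receptor chain for IL-1, had the member peak with the highest fold enrichment in either list. That peak had the same start and end in both lists, chr1:40312496-40313852, with 2 exonic blocks of 19 and 878 bp. Its fold enrichment was 26.8 in OVA lung and 28.1 in PBS lung, at percentiles 96.5 and 97.6 of their lists. No other member pair had both the same start and the same end.

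Closer to the end of Il1r1, a peak at chr1:40315256-40315554 in OVA lung overlapped one at chr1:40315196-40315584 in PBS lung. Its fold enrichment was 8.87 in OVA lung and 4.40 in PBS lung, a ratio of 2.02. A small peak was found further along in each list, with a fold enrichment of 1.86 at chr1:40315674-40315734 in OVA lung and of 2.28 at chr1:40315973-40316062 in PBS lung. These small peaks did not overlap each other or any peak of the other list.

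**Figure D1:**
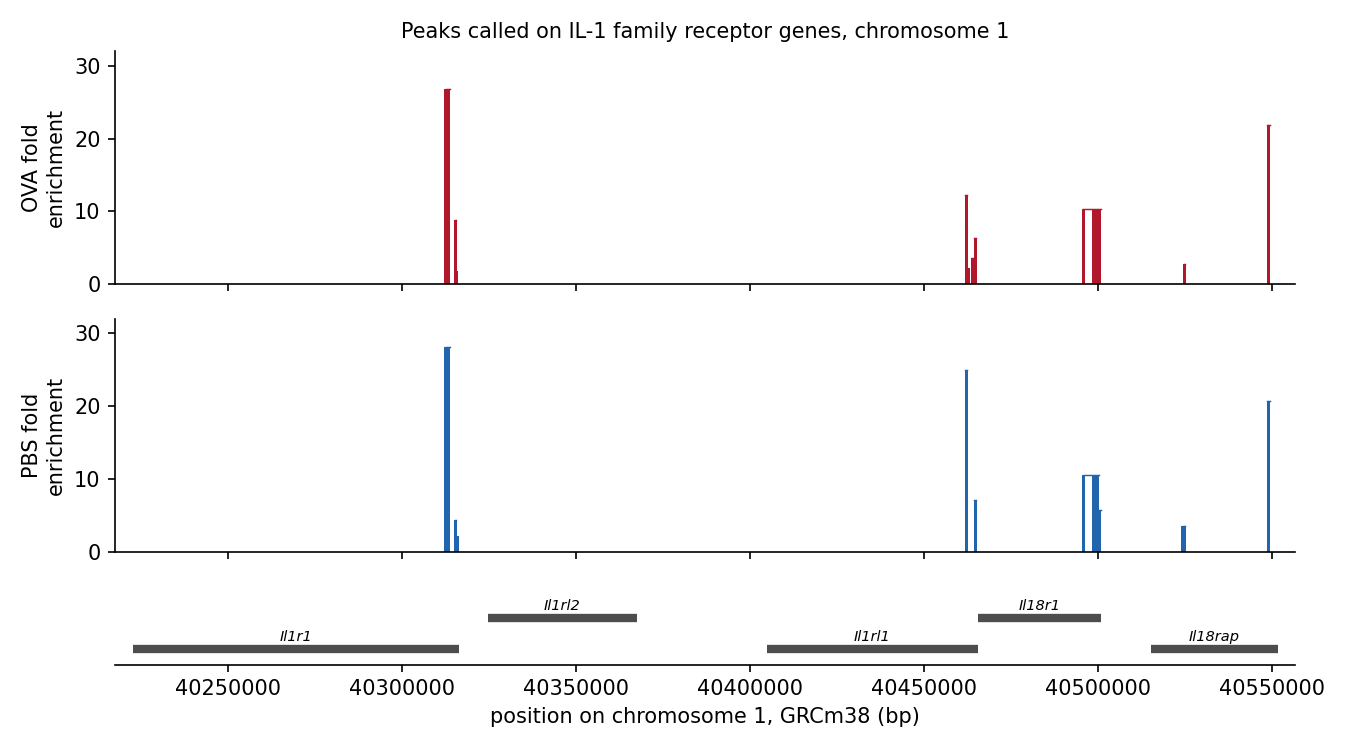
Fold enrichment of IP over input (vertical axis) of the peaks called on Il1r1, Il1rl1, Il18r1 and Il18rap along chromosome 1 (horizontal axis, bp, GRCm38). The OVA list is in red above the PBS list in blue, with RefSeq gene positions as grey bars. Il1rl2, which is not a member, is drawn without its peaks, of 9.28 in OVA lung and 9.41 in PBS lung. Bars are exonic blocks, drawn wider than to scale where narrow, and thin lines join the blocks of 1 peak; the peaks of Il1r1 and Il1rl1 stood at the 3' ends of their genes, and the tallest was that of Il1r1 in both lists.

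Il1rl1, which encodes the IL-33 receptor ST2, had 4 peaks in OVA lung and 2 in PBS lung, all in the 3' UTR. The peak farthest from the gene end lay at chr1:40461849-40462388 in OVA lung, with a fold enrichment of 12.3, and at chr1:40461909-40462328 in PBS lung, with 25.0. It was 2.03 times higher in PBS lung, although its log10 p was -123 in OVA lung and -25.4 in PBS lung. The peak nearest the gene end had a fold enrichment of 6.33 in OVA lung and 7.17 in PBS lung. Between these lay 2 further OVA peaks, of 61 bp at chr1:40462718-40462778 with a fold enrichment of 2.31 and of 240 bp at chr1:40463737-40463976 with 3.65, and no PBS peak overlapped them. The OVA peaks together covered 1411 exonic bp and the PBS peaks 1020, of which 930 were shared.

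**Figure D2:**
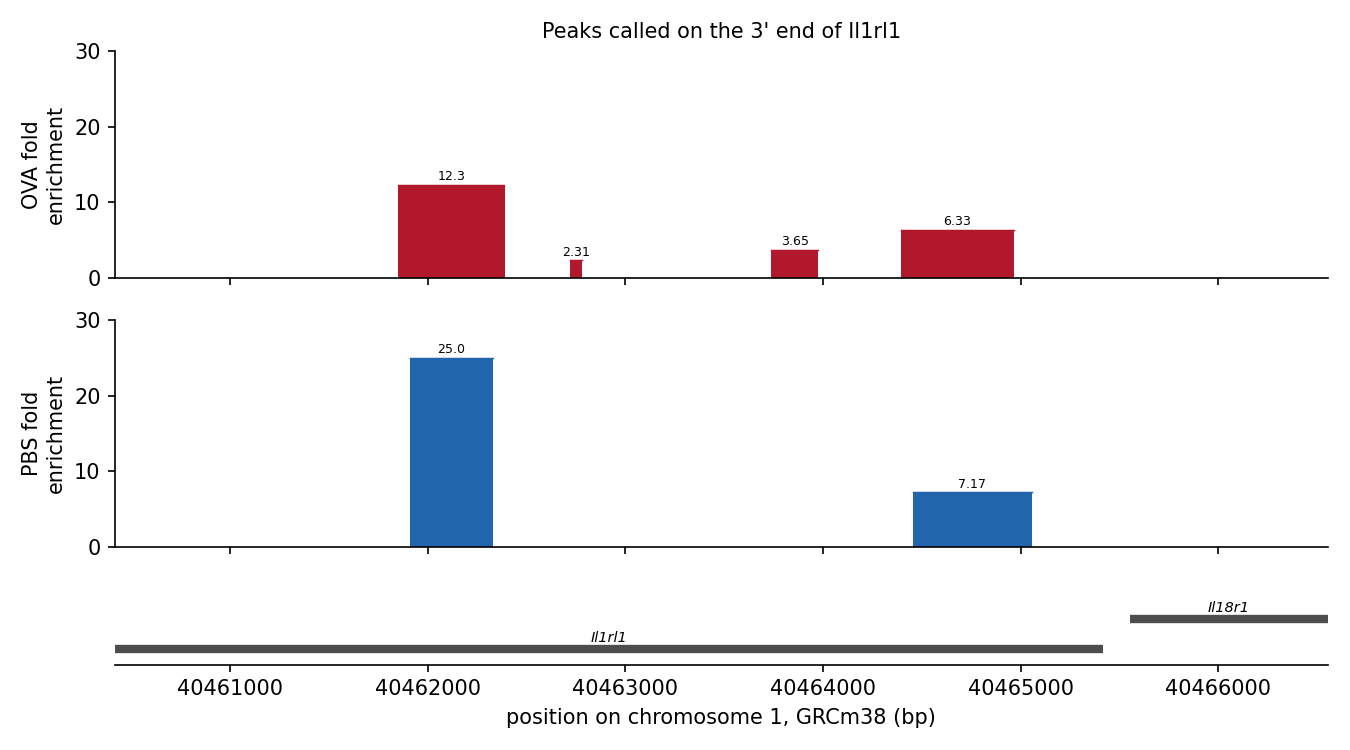
Fold enrichment of IP over input (vertical axis) of each peak at the 3' end of Il1rl1 against position on chromosome 1 (horizontal axis, bp, GRCm38), for the OVA list in red and the PBS list in blue, with RefSeq gene positions as grey bars. Bars span the peaks to scale; the outer peaks occurred in both lists, and the peaks of 2.31 and 3.65 occurred in OVA lung only.

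No Il1rl1 peak carried the name of Il1rl1. All 4 OVA peaks and both PBS peaks were assigned to Il18r1, whose RefSeq start at 40465552 lay 587 bp beyond the last OVA peak and 497 bp beyond the last PBS peak. The RefSeq positions of these genes are separated by 133 bp at chr1:40465419-40465551. That intergenic sequence, credited to RefSeq on GRCm38.p6 and given on the plus strand, on which both genes are read, is shown because it is all that separates the gene on which the peaks were called from the start of the gene whose name they bore. No motif was searched in it, so no letters are in capitals.

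Il1rl1 to Il18r1: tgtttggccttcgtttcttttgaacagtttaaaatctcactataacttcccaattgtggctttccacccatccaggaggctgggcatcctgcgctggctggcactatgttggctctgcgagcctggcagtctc

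The same shift of names was found for Il1r1 and Il18r1 and not for Il18rap. Every Il1r1 peak was assigned to Il1rl2 and every Il18r1 peak to Il18rap, in both lists, while both Il18rap peaks of each list kept their own name. Counting all member peaks, 9 of 14 in OVA lung (64.3%) and 7 of 13 in PBS lung (53.8%) bore the name of a gene other than the one they had been called on. Over all peaks the shares were 22.5% in OVA lung and 22.8% in PBS lung. The member count is partly fixed by the choice of peaks, which took in those named for either gene.

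Il18r1 encodes the chain that binds IL-18. In the OVA list it had 1 peak of 2603 exonic bp, at chr1:40495822-40500854, in 2 blocks of 86 and 2517 bp, with a fold enrichment of 10.3. The PBS list divided the same stretch into a peak at chr1:40495881-40500226, with a fold enrichment of 10.6, and a peak at chr1:40500286-40500854, with 5.75. The PBS peaks lay wholly within the OVA peak, which shared 2485 of its exonic bp with them, and both lists reached the RefSeq end of the gene.

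Il18rap, the accessory chain for IL-18, had a strong and a weak peak in each list. The strong peak, in the 3' UTR, lay at chr1:40548658-40549375 in OVA lung with a fold enrichment of 21.9 and at chr1:40548718-40549405 in PBS lung with 20.8. The weak peak was annotated as exonic and lay 26723 bp before the gene end in both lists, with fold enrichments of 2.84 in OVA lung and 3.54 in PBS lung. This was the only one of the 10 member pairs with a lower log10 p in PBS lung, -19.2 against -16.6.

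Il1rap, the accessory chain shared by the IL-1 and IL-33 receptors, had the lowest fold enrichment among the genes with a peak in both lists when each gene was taken by its highest peak. It was 2.42 for a peak of 211 bp at chr16:26714929-26715139 in OVA lung and 2.28 for a peak of 61 bp at chr16:26715019-26715079 in PBS lung. These put Il1rap at percentile 8.60 of the genes of the OVA list and 7.49 of those of the PBS list. Another OVA peak assigned to Il1rap, with a fold enrichment of 2.00, had been called on Gm20319 and had 2 exonic blocks. Its block of 76 bp lay within the Il1rap peak of the same list, and its block of 73 bp, at chr16:26729919-26729991, lay outside it.

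Il17rb, which encodes the receptor chain for IL-25, lies on the minus strand of chromosome 14 and had 1 peak in each list. It lay at chr14:29996255-29997032 in OVA lung, with a fold enrichment of 8.34, and at chr14:29996464-29996972 in PBS lung, with 3.73. The ratio of 2.24 was the highest of the member pairs and stood at percentile 94.2 of all pairs. All 509 exonic bp of the PBS peak lay within the OVA peak, whose log10 p was -86.0 against -13.3.

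Member peaks without a counterpart were 3 of 14 in OVA lung (21.4%), of which 2 were on Il1rl1 and 1 on Il1r1. In the PBS list they were 2 of 13 (15.4%), on Il18 and Il1r1. Of all peaks, 19.4% of the OVA list and 14.5% of the PBS list overlapped no peak of the other list, so the member shares lay near the background.

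The 10 member pairs, each made of the peaks with the largest mutual overlap, had a median OVA to PBS ratio of 0.963. Of the 10, 4 were higher in OVA lung and 6 in PBS lung. The Il18r1 pair, with a ratio of 0.972, left out the weaker PBS peak within the OVA peak, with a fold enrichment of 5.75. Over all 20531 pairs the median ratio was 1.10, with quartiles of 0.878 and 1.37, and 61.4% were higher in OVA lung. A fold enrichment at least 2 times higher in OVA lung was found for 2 of the 10 pairs, on Il17rb and Il1r1, against 7.78% of all pairs. One at least 2 times higher in PBS lung was found for 1 pair, on Il1rl1, against 4.92% of all pairs. After division by the median ratio of all pairs, Il17rb stood at 2.04 and the Il1r1 pair at 1.84, below the threshold, while the Il1rl1 pair was 2.23 times higher in PBS lung. The division also turned the strong Il18rap pair, from 1.05 to 0.959, and the Il1rap pair, from 1.06 to 0.967. Only the Il17rb pair and that Il1r1 pair then remained higher in OVA lung. None of these ratios has a replicate error.

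**Figure D3:**
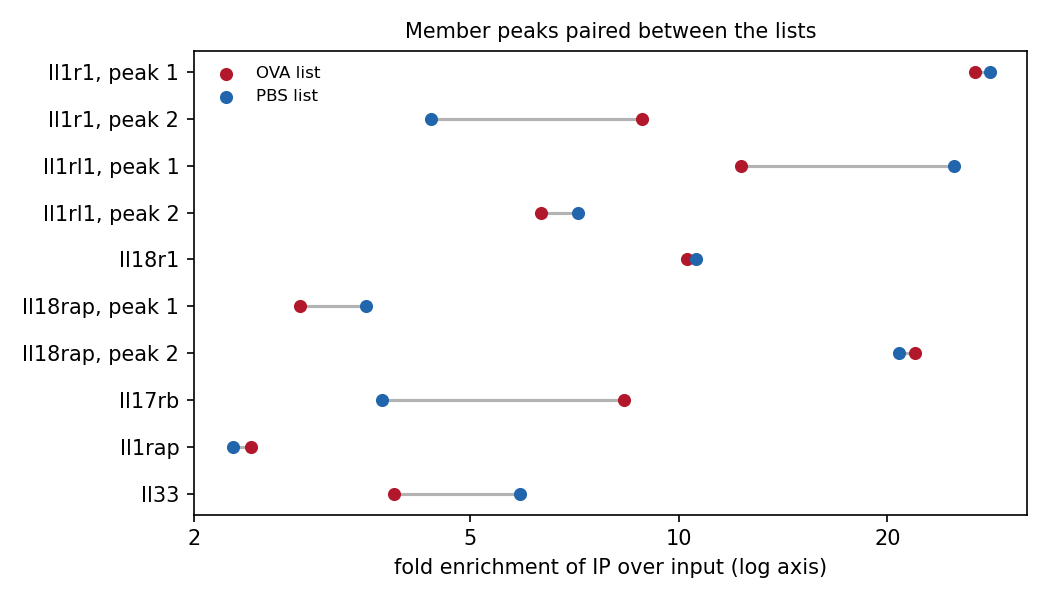
Fold enrichment of IP over input (horizontal log axis) of the 10 member pairs, labelled with their called gene and numbered by position, with the OVA list in red, the PBS list in blue and a grey line joining each pair. The longest lines belong to Il17rb and the second Il1r1 pair, higher in OVA lung, and to the first Il1rl1 pair, higher in PBS lung.

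Most member peaks lay late in their genes. Of the OVA member peaks 12 of 14 (85.7%), and of the PBS member peaks 12 of 13 (92.3%), were annotated to a 3' UTR, against 52.7% of all peaks in each list. Of the 13 member peaks of each list for which the distance could be measured, 11 (84.6%) ended within 5000 bp of the RefSeq end of the gene, the exceptions in both lists being the weak Il18rap peak and the Il1rap peak. Among all peaks with such a distance the share was 63.5% in OVA lung and 63.4% in PBS lung. Of 14 RefSeq promoter windows of 9 member genes, some of them at internal starts, 0 overlapped a peak of either list, against 7.10% of all 32851 windows, so the number of member windows is too small to set them apart. The assigned transcript was annotated as protein-coding for 42.9% of the OVA and 46.2% of the PBS member peaks, near the shares of all peaks, 41.8% and 42.5%. It was annotated as retained-intron for 6 of 14 OVA and 6 of 13 PBS member peaks, all called on Il1r1, Il18rap and Il17rb. Among all peaks this held for fewer, 5569 of 27292 in OVA lung and 5253 of 26102 in PBS lung. The annotation is that of the assigned gene, which was Il1rl2 for every Il1r1 peak, so it does not describe Il1r1 RNA. Likewise, the protein-coding transcripts of the Il1rl1 and Il18r1 peaks were those of Il18r1 and Il18rap. The median fold enrichment of the members was 5.11 in OVA lung and 5.75 in PBS lung, beside 5.59 and 5.44 over all peaks. They ranged from 1.86 to 26.8 in OVA lung and from 2.28 to 28.1 in PBS lung, and the order of the genes by their highest peak began with Il1r1, Il18rap and Il1rl1 in OVA lung and with Il1r1, Il1rl1 and Il18rap in PBS lung.

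Of 37 further genes of these pathways, read by the called gene, 23 had a peak in OVA lung and 22 in PBS lung, and 21 had one in both. The 2 of 23 found in OVA lung only and the 1 of 22 found in PBS lung only stood beside 11.7% and 8.10% of all genes. Peaks in OVA lung only were found for Sigirr, an inhibitory receptor of the family, with a fold enrichment of 2.22, and Pycard, the inflammasome adaptor, with 2.37. Casp1, the protease that cuts IL-18 and IL-1beta, had a peak in PBS lung only, with a fold enrichment of 15.3 and a log10 FDR of -3.46. The highest fold enrichments in OVA lung were 22.2 for Nlrp3, the inflammasome sensor, 18.1 for Traf6, the ubiquitin ligase downstream of these receptors, and 15.7 for Il17ra, the partner chain of Il17rb. In the PBS list they were 19.0 for Traf6, 16.8 for Il7r, whose product pairs with that of Crlf2 in the TSLP receptor, and 15.3 for Casp1. Of 30 pathway pairs, 2 (6.67%) had a fold enrichment at least 2 times higher in OVA lung and 0 in PBS lung, near the 7.78% and below the 4.92% of all pairs. They were on Nlrp3, with 17.5 against 6.09, and Irak4, with 3.50 against 1.67. That Nlrp3 peak of OVA lung also overlapped another PBS peak, with a fold enrichment of 4.81. Its log10 p was -24.5, against -33.6 for the paired PBS peak. After division by the median ratio of all pairs, Nlrp3 stood at 2.62 and Irak4 at 1.91, below the threshold, and the Irak4 peak of PBS lung had 61 exonic bp and a log10 FDR of -1.41.

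Markers were read for the cells in which these genes act. Of 10 markers of lung epithelium, 8 had a peak in both lists, and Sftpc and Epcam had none. A further 6 genes were picked to stand for other tissues, and whether lung lacks their RNA was not checked. Of these, 0 had a peak in OVA lung and 2, Myh6 and Gfap, in PBS lung, while 8.10% of all genes with a PBS peak had none in OVA lung. The Gfap peak had a log10 FDR of -1.34, and the weaker of the Myh6 peaks one of -9.45. All 4 T cell markers had a peak in OVA lung, and 2 of them, Cd3e and Cd4, in PBS lung, where 11.7% of all genes with an OVA peak had none. The highest peak was lower in OVA lung for both, with fold enrichments of 5.90 against 10.4 for Cd3e and 3.38 against 4.56 for Cd4. The peaks found in OVA lung only were weak. That of Cd3g had a fold enrichment of 3.67 and a log10 FDR of -5.60. Those of Cd8a had fold enrichments of 2.60 and 2.82, and the weaker log10 FDR was -1.84. Of 4 eosinophil markers, Ccr3 alone had a peak, with a fold enrichment of 13.0 and a log10 FDR of -252 in OVA lung and 6.17 and -1.87 in PBS lung, while Siglecf, Epx and Prg2 had none. No marker of mast cells and basophils had a peak, and of 4 markers of group 2 innate lymphoid and Th2 cells, Gata3 and Rora had peaks in both lists and Il13 and Areg in neither. The highest peak of Gata3 had a fold enrichment of 15.6 in OVA lung and 18.1 in PBS lung, and that of Rora 17.2 and 17.0. The lists hold no RNA levels, so summed marker levels are not given, and the part of these cells in the member values was not tested.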

How the data were processed

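Lungs of 3 mice a group were studied by IP and input sequencing. The authors cleaned reads in FASTP, aligned them by HISAT2 to the Ensembl mouse genome, called peaks in exomePeak and annotated them by ChIPseeker. They also compared peaks between the groups in exomePeak and expression in edgeR, and the values of those comparisons are not given here. They deposited 1 list a group, and how the mice were combined is not given in the sources used here. The deposited fold enrichment is a ratio of IP over input. The deposited scores are log10 values of the p and FDR given by the authors' caller. Widths, distances and block sizes are in bp.

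The lists count starts from 0: of the OVA peaks on plus-strand transcripts, 442 began 1 base before the transcript start and 16 at it. So 1 was added to each start. Peaks of both lists were matched by at least 1 bp of shared exonic blocks, and pairs are those with mutually largest overlap, whose ratios only describe lists made separately. Percentiles are ranks within a list. Distances to gene ends used RefSeq positions on GRCm38.p6. The named genes are all members, the pathway genes with a peak in 1 list only and the 3 highest of each list, while Irak4 was named after its values were seen. Members and lists were chosen with earlier results of these data known. Alternatives covered gene assignment, FDR, fold enrichment, overlap and ratio. Python 3.11.15, numpy 2.4.6, pandas 2.3.3 and matplotlib 3.10.9 were used, and the overlap code was tested on simulated data. Read depth was not analysed here, so no interval is given.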

Additional observations from a re-analysis of the deposited data

How the results depend on the processing

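Of 60 recomputed values over 12 results, 46 were counts within 1.5 times the reported one or values equal to it, and 14 moved further or were medians that differed. Identical start and end left 13 OVA and 12 PBS member peaks without a counterpart and 0 pairs past a ratio of 2 in either direction. An overlap of 50% of both peaks left 5 OVA and 4 PBS peaks without one. By the assigned gene name alone, 1 PBS peak had no counterpart, 1 pair was at least 2 times higher in OVA lung, and the median fold enrichment was 3.89 in OVA lung and 5.83 in PBS lung. By the called gene alone, or with a fold enrichment of at least 2, the OVA median was 6.33. A ratio of at least 1.5 gave 2 pairs higher in PBS lung, the added one being Il33, and division by the median ratio gave 1 pair higher in OVA lung, Il17rb. An FDR under 0.05 left all member peaks in place. For pathway pairs, division by the median ratio and an overlap of 50% of both peaks, chosen after seeing the data, each left 1 pair at least 2 times higher in OVA lung and 0 in PBS lung. No paired analysis was possible because each group has 1 list and no value of a single mouse. The cause of the differences was not tested.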

Other observations

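The p value and the fold enrichment of the member pairs often pointed to different lists. The log10 p was lower in OVA lung for 9 of 10 member pairs, against 59.4% of all pairs. For 5 of the 10, on Il33, Il1rl1, Il1r1 and Il18r1, the OVA list had the lower log10 p and also the lower fold enrichment, which held for 15.0% of all pairs. The difference in fold enrichment was small for Il1r1, with an OVA to PBS ratio of 0.954, and for Il18r1, with 0.972. The Il18r1 pair also left out the other PBS peak within the OVA peak, with a fold enrichment of 5.75, so its direction is uncertain. Read numbers and RNA levels were not analysed here, and their part in this difference was not tested.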
